A study of Mus musculus with 18 samples.

Results

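The genes described here encode the proteins of cell-cell junctions and the classical cadherins. There were 35 of them among the 49585 gene identifiers of the deposited count table, taken by name from a list and sorted by junction: 16 of the tight junction, 9 of the adherens junction with its cadherins, 8 of the desmosome and 2 of the gap junction. Epcam, an adhesion protein that is no cadherin, was counted with the adherens junction. They were followed in 18 laser-captured lung metastases, by lesion, by mouse and by treatment, and beside Scgb1a1, the secretoglobin of airway club cells, because a captured piece of lung can hold airway epithelium as well as tumour. In all, 33 members had enough counts to be tested. The other two were Cldn6, with 6 counts over 3 lesions, and Pkp1, with 0 counts in every lesion, which allows up to 0.0180 CPM (3 counts over all 18 lesions, counting error only).

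Tight junctions seal the space between neighbouring epithelial cells: claudins and occludin span the membrane, and scaffold proteins such as ZO-1 tie them to the cytoskeleton. Adherens junctions hold cells together through cadherins, whose tails bind catenins, and desmosomes link keratin filaments through desmogleins, desmocollins, plakoglobin, plakophilins and desmoplakin. Gap junctions are channels of connexins that let small molecules pass between cells. E-cadherin (Cdh1), Epcam and most claudins mark epithelium, in the lung the airway and alveolar lining, while N-cadherin (Cdh2) and cadherin-11 (Cdh11) are found in mesenchymal cells, and loss of E-cadherin in favour of these is a textbook sign of epithelial-mesenchymal transition in carcinoma.

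AT3 is a breast carcinoma line of the mouse, grown from a mammary tumour of an MMTV-PyMT transgenic animal. AT3 cells carrying GFP and mCherry were placed in the mammary fat pad, and lung lesions that arose by spontaneous spread were picked by their fluorescence and cut out by laser. The NK group comprised 7 lesions of 2 mice, NK1 (3 lesions) and NK2 (4 lesions), given 60000 murine NK cells, activated in culture, by vein on day 11. The Ctrl group comprised 11 lesions of 3 mice, labelled KO1 (5 lesions), KO2 (4 lesions) and KO3 (2 lesions), given PBS instead. All hosts, both groups alike, had the strain label Rag2-/-IL2rg-/-, although the growth protocol names Rag1-/-IL2rg-/-; such mice form no T, B or NK cells of their own but keep myeloid cells. The host's sex and age are not given in the sources used here. A lesion is written as mouse and lesion number, so NK1-3 is the third lesion of mouse NK1. The mouse was the replicate, with counts summed over its lesions.

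Total counts were 2964240 to 11798852 in NK lesions and 5690444 to 9816213 in Ctrl lesions, and the mitochondrial transcript mt-Rnr2 took 13.7% to 65.3% of counts in NK lesions and 12.1% to 68.7% in Ctrl lesions. By mouse, this share was 47.6% to 65.3% in NK1 and 13.7% to 22.8% in NK2, with no overlap. In Ctrl mice it was 22.8% to 68.7% (KO1), 12.1% to 24.4% (KO2) and 35.8% to 44.1% (KO3). Its part in values that set NK1 apart was not tested. Vim, a marker on the AT3 list that stromal cells express as well, had 292 to 2022 CPM (counts relative to the TMM-scaled library size) in NK lesions and 906 to 2411 CPM in Ctrl lesions, while Krt14 was at 0 in every lesion but NK1-2 and Krt8 had 5.71 to 104 CPM in NK lesions and 2.76 to 31.5 CPM in Ctrl lesions. Markers of lung cells were present as well, with a summed level of 10 alveolar genes at 199 to 3024 CPM in NK lesions and 679 to 3516 CPM in Ctrl lesions. In bulk samples of this kind, fewer cells of a type and less RNA per cell cannot be told apart. A few lesions stood apart. NK1-3 was the shallowest, with the lowest summed level of 6 AT3 tumour markers (564 CPM, against 1122 to 2803 CPM in the other lesions). Vim made 292 CPM of that sum, while Krt8 (104 CPM) and Krt7 (51.1 CPM) of the same list were highest in NK1-3. NK1-1 had the highest fibroblast sum (8307 CPM, 7 genes) and the highest heart muscle sum (285 CPM, 9 genes).

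The sequences just upstream of the start site are shown for 5 members whose levels move with captured airway or with 1 mouse in the results that follow. The RefSeq promoter table (GRCm38.p6) held 24 of the 35 members by symbol. It had no window for Cdh1, Cdh2, Cdh3, Cdh11, Ctnna1, Marveld3, Pkp1, Pkp2, Pkp3, Dsg2 and Dsc2, so these were not searched. In each window of 250 bases that ends at the annotated start, the E-box CAGGTG was searched on both strands (CACCTG on the other strand), a motif bound by Snail and Zeb repressors at epithelial genes; its matches are in capitals. The grainyhead-like site AACCGGTT, which reads the same on both strands, was searched too, and neither motif overlaps the other. Cldn4 and Cldn3 lie 39279 bases apart on chromosome 5.
Cldn4 (chr5:134946935-134947184, minus strand): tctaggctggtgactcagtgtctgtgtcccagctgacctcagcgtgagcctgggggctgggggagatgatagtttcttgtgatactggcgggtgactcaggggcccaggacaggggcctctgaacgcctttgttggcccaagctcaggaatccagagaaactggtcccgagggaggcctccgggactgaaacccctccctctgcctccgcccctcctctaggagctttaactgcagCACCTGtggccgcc
Cldn3 (chr5:134985964-134986213, plus strand): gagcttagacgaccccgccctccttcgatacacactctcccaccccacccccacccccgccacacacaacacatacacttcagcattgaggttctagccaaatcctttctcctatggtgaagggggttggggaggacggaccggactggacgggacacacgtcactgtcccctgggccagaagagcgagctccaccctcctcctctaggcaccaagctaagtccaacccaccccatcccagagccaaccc
Epcam (chr17:87635729-87635978, plus strand): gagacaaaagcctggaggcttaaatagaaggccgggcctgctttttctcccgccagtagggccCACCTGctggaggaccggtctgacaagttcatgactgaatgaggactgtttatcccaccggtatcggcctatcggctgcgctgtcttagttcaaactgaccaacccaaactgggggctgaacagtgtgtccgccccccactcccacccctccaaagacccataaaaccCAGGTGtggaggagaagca
Lsr (chr7:30973470-30973719, minus strand): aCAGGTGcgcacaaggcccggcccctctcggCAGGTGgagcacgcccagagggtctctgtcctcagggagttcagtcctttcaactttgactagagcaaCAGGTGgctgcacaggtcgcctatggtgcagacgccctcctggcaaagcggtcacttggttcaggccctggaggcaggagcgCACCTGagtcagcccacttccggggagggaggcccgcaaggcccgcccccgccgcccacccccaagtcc
Cldn1 (chr16:26371840-26372089, minus strand): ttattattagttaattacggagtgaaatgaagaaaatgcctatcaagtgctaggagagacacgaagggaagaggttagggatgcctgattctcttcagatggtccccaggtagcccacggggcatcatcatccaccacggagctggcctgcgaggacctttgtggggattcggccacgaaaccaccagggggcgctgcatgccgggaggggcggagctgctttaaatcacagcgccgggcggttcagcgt

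The E-box was found upstream of 12 of these 24 members: Cldn4, Cldn6, Cldn7, Crb3, Epcam, F11r, Gjb2, Lsr, Ocln, Pard3, Pkp4 and Tjp3. Of the 27025 genes in the table, 19.4% held it in at least 1 window (17.2% of 32851 windows). Some members, such as Pkp4 and Pard3, had more than 1 window and so more room for a match. The windows of Cldn3 and Cldn1 had no match. AACCGGTT was found upstream of 0 of the 24 members and of 0.137% of genes. A match describes the letters of the window and is no measurement of binding.

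Per kilobase of exon, β-catenin, connexin 43 and α-catenin were the most abundant members, and the desmosomal cadherins were among the least. The order by median CPM per kb over the 18 lesions began with Ctnnb1 (β-catenin, which links cadherin tails to α-catenin and also serves in Wnt signalling) at 23.4 and Gja1 (connexin 43, the most widespread gap junction channel) at 19.8, followed by Ctnna1 (α-catenin) at 8.84, Afdn (afadin, which couples nectins to actin) at 6.93 and Cdh1 at 5.80. F11r (the adhesion molecule JAM-A) had a median of 5.62 CPM per kb and Tjp1 (ZO-1) one of 5.59. Neighbours in this order overlapped widely: Ctnnb1 spanned 10.5 to 41.8 CPM per kb and Gja1 0.632 to 36.8, and Cdh1, from 0.0887 to 47.1, spanned nearly the whole range of the list. At the low end, the medians were 0.164 CPM per kb for Cdh2, 0.0744 for Dsg2 (desmoglein 2), 0.0527 for Dsp (desmoplakin, the link from desmosome to keratin) and 0.0376 for Cdh3 (P-cadherin), and Cldn4, Cldn6, Dsc2 and Pkp1 had a median of 0. Of the cadherins with a median above 0, Cdh1 stood above Cdh11 (0.837 CPM per kb) and Cdh2.

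**Figure D1:**
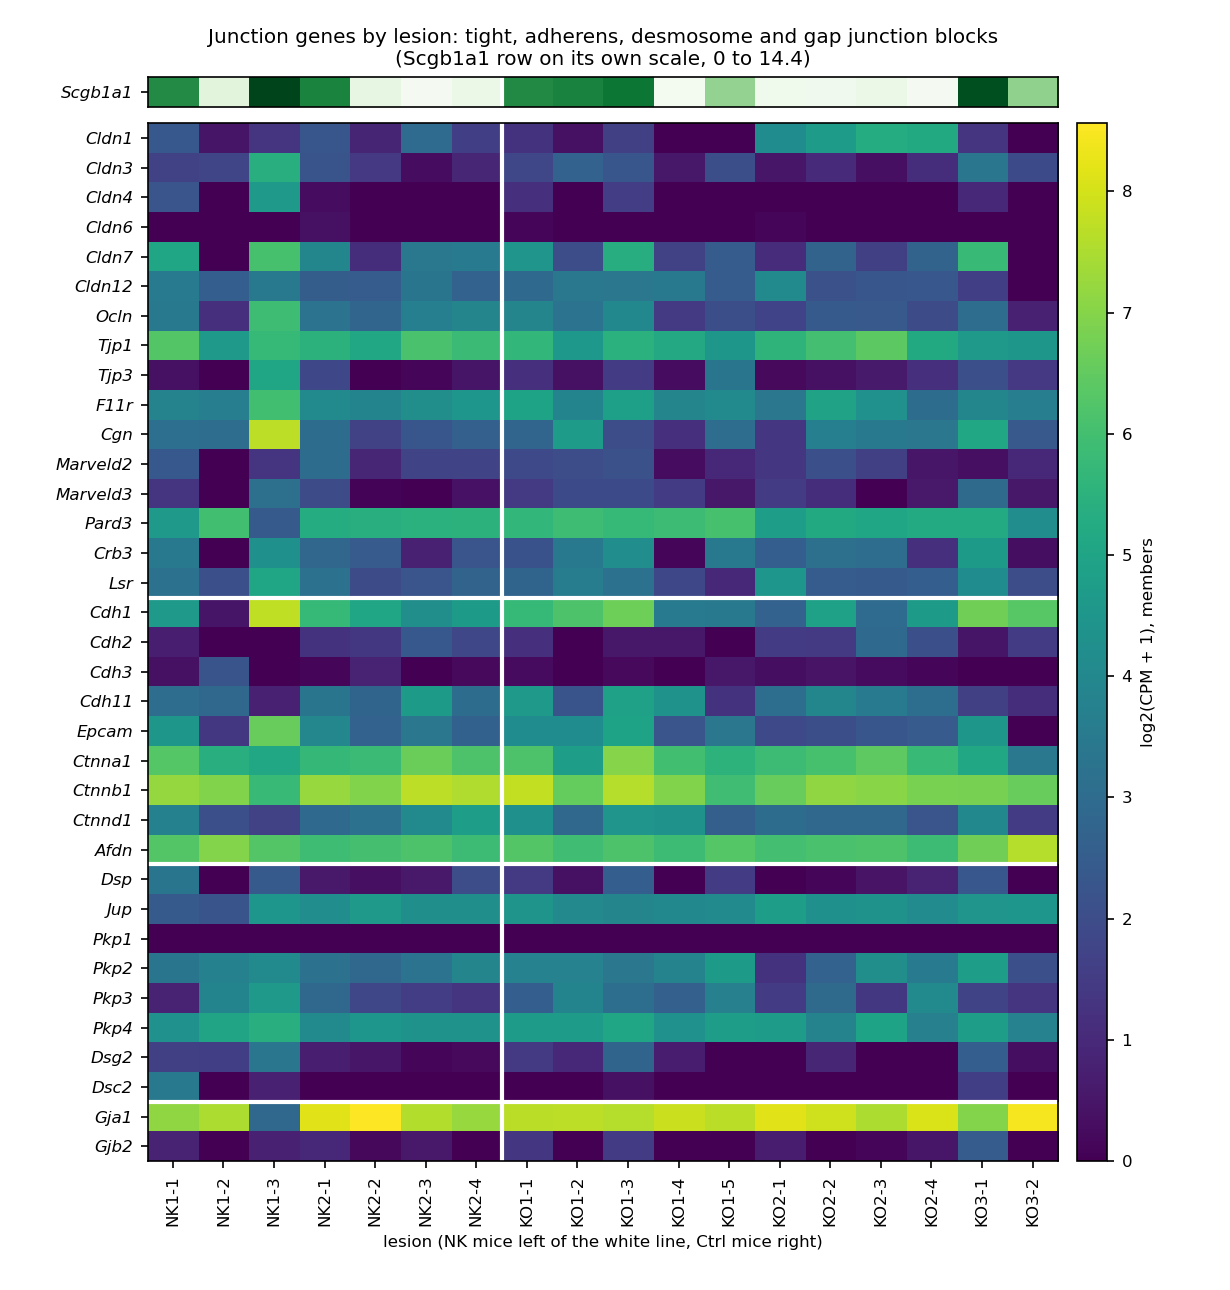
Level of the 35 junction genes (rows) in 18 lesions (columns), as log2(CPM + 1), with NK lesions left and Ctrl lesions right of the vertical white line and white horizontal lines between the 4 junction classes. The top row gives Scgb1a1 on a scale of its own. Ctnnb1, Afdn and Gja1 were high nearly throughout, Pkp1 was at 0 in every lesion, and the claudin, Cdh1 and Epcam rows vary between lesions of the same mouse.

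NK lesions were compared with Ctrl lesions to ask whether junction genes differ where NK cells had been transferred. No member passed the test: 0 of 33 had an adjusted p under 0.05 (edgeR quasi-likelihood test with Benjamini-Hochberg adjustment over all 16917 genes; adjusted p = 0.9998 for each member), where the share of all genes tested was 0%, that is, 0 genes. At an unadjusted p under 0.05 the same test had 0 members, against 426 genes or 2.52% of all genes. DESeq2 called 21 genes on the same counts, and 0 of them were members. The smallest unadjusted p among members was 0.162, for Ocln. The log2 fold change (NK over Ctrl) was positive for 16 members and negative for 17, where 48.3% of all genes were positive; its median was -0.08 for the members and -0.03 for all genes. Both NK mice lay above all 3 Ctrl mice for 3 members, Ocln, Marveld2 and Cdh3, against 7.94% of all genes, and below them for 0 members, against 6.86% of all genes. These shares lie near the background.

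**Figure D2:**
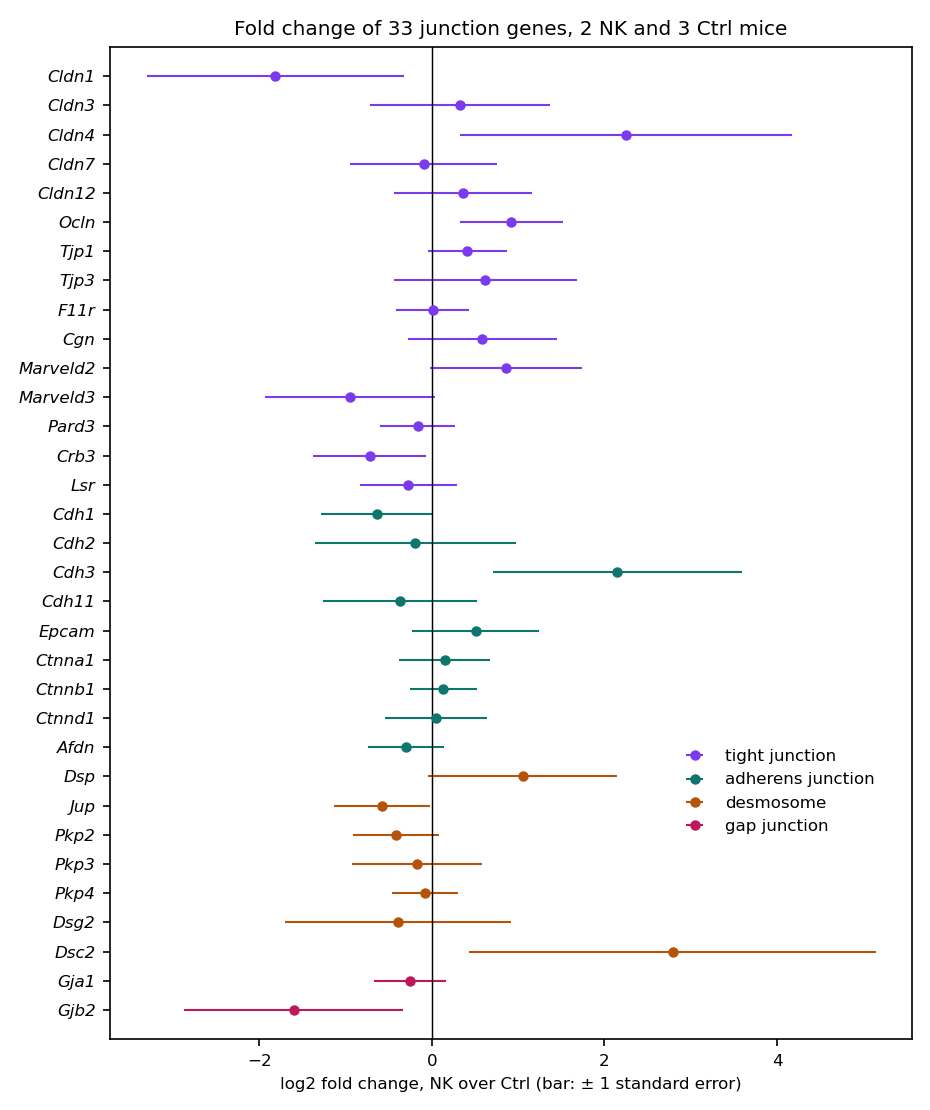
Log2 fold change of the 33 tested members, NK over Ctrl, from counts summed per mouse (2 NK and 3 Ctrl mice); points are estimates, bars are 1 standard error, and colours give the junction class. Estimates lie on both sides of 0 in the tight, adherens and desmosome classes, and the widest bars belong to Dsc2, Cldn4, Cldn1 and Cdh3.

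In the tight junction class, 9 of 15 tested members were above 0 and 6 below, with a median log2 fold change of 0.33. Ocln (occludin, a membrane protein of the seal; ENSMUSG00000021638.12, chromosome 13, 100496507 to 100552718, GRCm38) had 13.99 and 10.8 CPM in the 2 NK mice, and 10.8, 3.71 and 5.13 CPM in the 3 Ctrl mice. Its log2 fold change was 0.92 ± 0.60 (standard error, p = 0.162 unadjusted, edgeR). The lowest NK mouse and the highest Ctrl mouse, NK2 and KO1, were nearly equal. By lesion, Ocln had 1.22, 9.94 and 58.3 CPM (lowest, median, highest) in NK lesions, and 0.708, 4.22 and 14.98 CPM in Ctrl lesions, so the groups overlapped, with 1 high lesion, NK1-3.

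Claudins set the permeability of the seal, and for Cldn1 and Cldn4 a single mouse stood above the rest. Cldn1 (ENSMUSG00000022512.2, chromosome 16, 26356642 to 26371841, GRCm38) had 2.76 and 3.46 CPM in NK mice, and 1.17, 30.6 and 0.957 CPM in Ctrl mice, for a log2 fold change of -1.81 ± 1.49. The 1 high mouse was KO2, and without it the fold change turned to 1.54. Cldn4 (ENSMUSG00000047501.3, chromosome 5, 134945119 to 134946934, GRCm38) had 5.33 and 0.0535 CPM in NK mice, and 1.06, 0 and 0.609 CPM in Ctrl mice (2.25 ± 1.92). Here the high mouse was NK1, and without it the log2 fold change was -3.28. That value rests on 3 counts in NK2-1 and 0 in the other NK2 lesions.

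Cldn3 (ENSMUSG00000070473.4, chromosome 5, 134986214 to 134987472, GRCm38) had 7.42 and 1.64 CPM in NK mice, against 2.92, 0.790 and 7.13 CPM in Ctrl mice (log2 fold change 0.33 ± 1.04). Cldn7 (ENSMUSG00000018569.12, chromosome 11, 69964779 to 69967885, GRCm38) had 28.5 and 9.46 CPM in NK mice, and 21.2, 3.93 and 35.5 CPM in Ctrl mice (-0.09 ± 0.85). For both genes the 2 NK mice fell inside the range of the 3 Ctrl mice or just beside it.

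Among the scaffolds, Tjp1 and Pard3 had smaller standard errors than the claudins named above. Tjp1 had 58.2 and 53.4 CPM in NK mice, and 41.5, 60.7 and 23.4 CPM in Ctrl mice (0.41 ± 0.46), and Pard3 (a polarity protein that places the junction) had 28.9 and 43.9 CPM in NK mice, and 56.5, 35.1 and 30.7 CPM in Ctrl mice (-0.16 ± 0.43). The tricellular junction protein Marveld2 had 2.66 and 3.32 CPM in NK mice, and 2.37, 2.00 and 0.522 CPM in Ctrl mice (0.86 ± 0.88). The other members of the class, Cldn12, Tjp3 (ZO-3), F11r, Cgn (cingulin, a scaffold on the cytoplasmic face), Marveld3, Crb3 (an apical polarity protein) and Lsr (angulin-1, of the tricellular junction), had log2 fold changes from -0.95 (Marveld3) to 0.62 (Tjp3).

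Among adherens junction genes, 5 of 9 were above 0 and 4 below, with a median log2 fold change of 0.04. Cdh1 (ENSMUSG00000000303.12, chromosome 8, 106603351 to 106670246, GRCm38) had 42.4 and 33.2 CPM in NK mice, and 60.5, 18.1 and 97.7 CPM in Ctrl mice (log2 fold change -0.64 ± 0.65, p = 0.355 unadjusted, edgeR). By lesion it had 0.406, 24.4 and 215 CPM (lowest, median, highest) in NK lesions, and 5.48, 28.7 and 104 CPM in Ctrl lesions. Both the lowest and the highest lesion of the series were in mouse NK1, and the groups overlapped. Epcam, a homophilic adhesion protein of epithelia (ENSMUSG00000045394.8, chromosome 17, 87635979 to 87651129, GRCm38), had 26.3 and 8.99 CPM in NK mice, against 18.7, 3.80 and 14.5 CPM in Ctrl mice (0.51 ± 0.74).

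The mesenchymal cadherins gave no clearer difference. Cdh2 had 0.381 and 2.53 CPM in NK mice, and 0.640, 3.47 and 0.957 CPM in Ctrl mice (-0.19 ± 1.16). Cdh11 (ENSMUSG00000031673.6, chromosome 8, 102632095 to 102785642, GRCm38) had 6.09 and 11.9 CPM in NK mice, and 22.3, 10.7 and 1.83 CPM in Ctrl mice (-0.37 ± 0.89). Cdh3 rested on 42 counts in all: it had 1.05 and 0.268 CPM in NK mice, and 0.139, 0.241 and 0 CPM in Ctrl mice (2.15 ± 1.44, p = 0.174 unadjusted, edgeR), and 9 of its 26 NK counts came from lesion NK1-2 and 11 from NK2-2. The catenins and afadin lay close to 0: Ctnnb1 had 124 and 176 CPM in NK mice, and 173, 128 and 109 CPM in Ctrl mice (0.14 ± 0.38), and Afdn had 85.8 and 66.3 CPM in NK mice, and 71.9, 68.7 and 140 CPM in Ctrl mice (-0.30 ± 0.44). Ctnna1 and Ctnnd1 (p120-catenin, which stabilises cadherins at the membrane) had log2 fold changes of 0.15 ± 0.52 and 0.04 ± 0.59.

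Of 7 tested desmosome genes, 2 were above 0 and 5 below, with a median log2 fold change of -0.17. Dsp (ENSMUSG00000054889.9, chromosome 13, 38151294 to 38198577, GRCm38) had 6.09 and 1.27 CPM in NK mice, and 2.39, 0.307 and 2.61 CPM in Ctrl mice (1.05 ± 1.10). Jup (plakoglobin, shared by desmosomes and adherens junctions) had 6.38 and 20.4 CPM in NK mice, and 16.8, 21.7 and 21.8 CPM in Ctrl mice (-0.58 ± 0.55, p = 0.326 unadjusted, edgeR). The low value was that of mouse NK1, whose lesions NK1-1 and NK1-2 had 4.42 and 3.65 CPM, below every other lesion. Pkp4 (a plakophilin-related catenin) had 24.3 and 20.6 CPM in NK mice, and 27.3, 21.4 and 22.3 CPM in Ctrl mice (-0.08 ± 0.39). Pkp2, Pkp3 and Dsg2 had log2 fold changes between -0.41 and -0.17.

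Dsc2, desmocollin 2, gave the highest estimate of the list, and it came from 1 lesion. It had 6.09 and 0 CPM in NK mice, and 0.111, 0 and 1.31 CPM in Ctrl mice (2.79 ± 2.35), with 63 of its 83 counts in lesion NK1-1. The log2 fold change was -7.05 without mouse NK1. That fit left NK2, with 0 counts of Dsc2, as the only NK mouse, so its size is not a measured fold change. NK1-1 also carried transcripts of heart muscle, a tissue rich in desmosomes: Myh6 had 299 counts there and 36 in the other 17 lesions together, and Myl7 had 548 there and 214 elsewhere. The summed level of 9 heart muscle genes was 285 CPM in NK1-1 and 0.921 to 82.8 CPM in the other lesions. Dsp was highest in NK1-1 too (9.15 CPM, next KO1-3 at 4.89 CPM). The same lesion had the most counts of the airway genes Bpifa1 (6381) and Scgb3a1 (4707). KO3-1, next for Dsc2 with 15 counts, had 0 counts of Myh6 and Myl7 and 52 of Tnni3. KO2-1, with 176 counts of Myl7, had 0 counts of Dsc2 and of Dsp. The parts of heart muscle and of airway in these values were not tested.

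Both gap junction genes were below 0. Gja1 (ENSMUSG00000050953.9, chromosome 10, 56377330 to 56402513, GRCm38) had 129 and 260 CPM in NK mice, and 216, 263 and 213 CPM in Ctrl mice (log2 fold change -0.25 ± 0.42). By lesion it had 6.48, 183 and 378 CPM in NK lesions, and 126, 208 and 352 CPM in Ctrl lesions; the low end was a single lesion, NK1-3, and without mouse NK1 the fold change was 0.17. Gjb2 (connexin 26, an epithelial channel) had 0.571 and 0.393 CPM in NK mice, and 1.09, 0.285 and 3.05 CPM in Ctrl mice (-1.60 ± 1.27), on 115 counts in all.

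A further 76 junction genes outside the list were counted for comparison, of which 50 passed the filter. None was called, 18 were above 0 and 32 below, and the median log2 fold change was -0.28. Of all genes tested, 48.3% were above 0, 0 were called and the median was -0.03. An unadjusted p under 0.05 (edgeR) was reached by 1 of the 50, and by 2.52% of all genes. That gene was Amot (angiomotin, a tight junction protein of the Hippo pathway). It had 17.04 and 5.12 CPM in NK mice, against 3.62, 4.69 and 3.22 CPM in Ctrl mice (1.52 ± 0.66, p = 0.0497 unadjusted, edgeR). Within the tight junction class 12 of 26 were above 0, among adherens junction genes 2 of 14, among desmosome genes 2 of 3 and among gap junction genes 2 of 7. The 2 genes with the smallest p in each class were, besides Amot, Magi1 (-0.95 ± 0.51), Cdh16 (1.71 ± 0.92), Ctnnd2 (-1.95 ± 1.51), Perp (1.41 ± 0.84), Evpl (-1.27 ± 1.38), Gja4, a connexin of endothelium (-1.33 ± 0.65), and Panx1 (-0.95 ± 0.66), each log2 fold changes that did not pass.

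Lesions differed sharply in the airway tissue they held. Scgb1a1 had 1852 to 21946 CPM in 7 lesions and 0.218 to 65.9 CPM in the other 11, with no value between. The 7 airway-rich lesions were NK1-1, NK1-3 and NK2-1 in the NK group and KO1-1, KO1-2, KO1-3 and KO3-1 in the Ctrl group; the 11 airway-poor lesions were 4 NK and 7 Ctrl lesions. The split was made after the values were seen, at the widest gap on the log2 scale. It lies within mice: 4 mice had lesions of both kinds, and KO2 had airway-poor lesions only. The airway-poor side was a single lesion in NK1 (NK1-2) and in KO3 (KO3-2). The airway-rich side was a single lesion in NK2 (NK2-1) and in KO3 (KO3-1). Of 9 tested airway markers, 8 were higher in the airway-rich lesions in 4 of 4 mice. Scgb1a1 is 1 of these 8, and its direction was fixed by the split itself. The exception was Scgb3a1, higher in 2 of 4 mice. Foxj1, which drives multiciliated cells, had 738 counts in airway-rich lesions and 1 in airway-poor lesions.

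Junction genes of epithelia were among those higher in the airway-rich lesions. In each of the 4 mice, the mean log2 CPM was higher in airway-rich than in airway-poor lesions for 12 of 33 members, against 11.8% of all genes tested, and it was lower in 4 of 4 mice for 0 members, against 5.49% of all genes. The 12 were Cldn1, Cldn3, Cldn4, Cldn7, Cgn, Marveld3, Crb3 and Lsr of the tight junction (8 of 15 tested), Cdh1 and Epcam of the adherens junction (2 of 9), Dsg2 of the desmosome (1 of 7) and Gjb2 of the gap junction (1 of 2). The median over members of the mean difference within mice was 1.90 on the log2 scale for tight junction genes, 0.13 for adherens junction genes, 0.54 for desmosome genes and 0.82 for the 2 gap junction genes, and 0.11 over all genes. These are descriptions with no test, since lesions of a mouse share a host and the split was chosen on the data.

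Other tissue moved partly with the split. Alveolar markers summed to 199 to 3516 CPM in airway-rich lesions and 321 to 2533 CPM in airway-poor lesions, with 2 of 10 genes higher in 4 of 4 mice. Smooth muscle markers, which lie around airways, summed to 11.7 to 121 CPM in airway-rich lesions and 9.44 to 59.97 CPM in airway-poor lesions, with 3 of 5 genes higher in 4 of 4 mice. Endothelial markers summed to 43.5 to 343 CPM in airway-rich lesions and 43.0 to 410 CPM in airway-poor lesions. Of these 8 genes, Kdr was higher in 4 of 4 mice, while Pecam1 and Egfl7 were lower in 4 of 4. The AT3 marker sum was 564 to 2578 CPM in airway-rich lesions and 1364 to 2803 CPM in airway-poor lesions. Of its 5 tested genes, the epithelial keratin Krt8 was higher in 4 of 4 mice and S100a4 was lower in 4 of 4. Vim, Krt7 and Krt18 were each higher in 2 of 4 mice. The share of mt-Rnr2 was 13.7% to 58.3% in airway-rich lesions and 12.1% to 68.7% in airway-poor lesions.

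**Figure D3:**
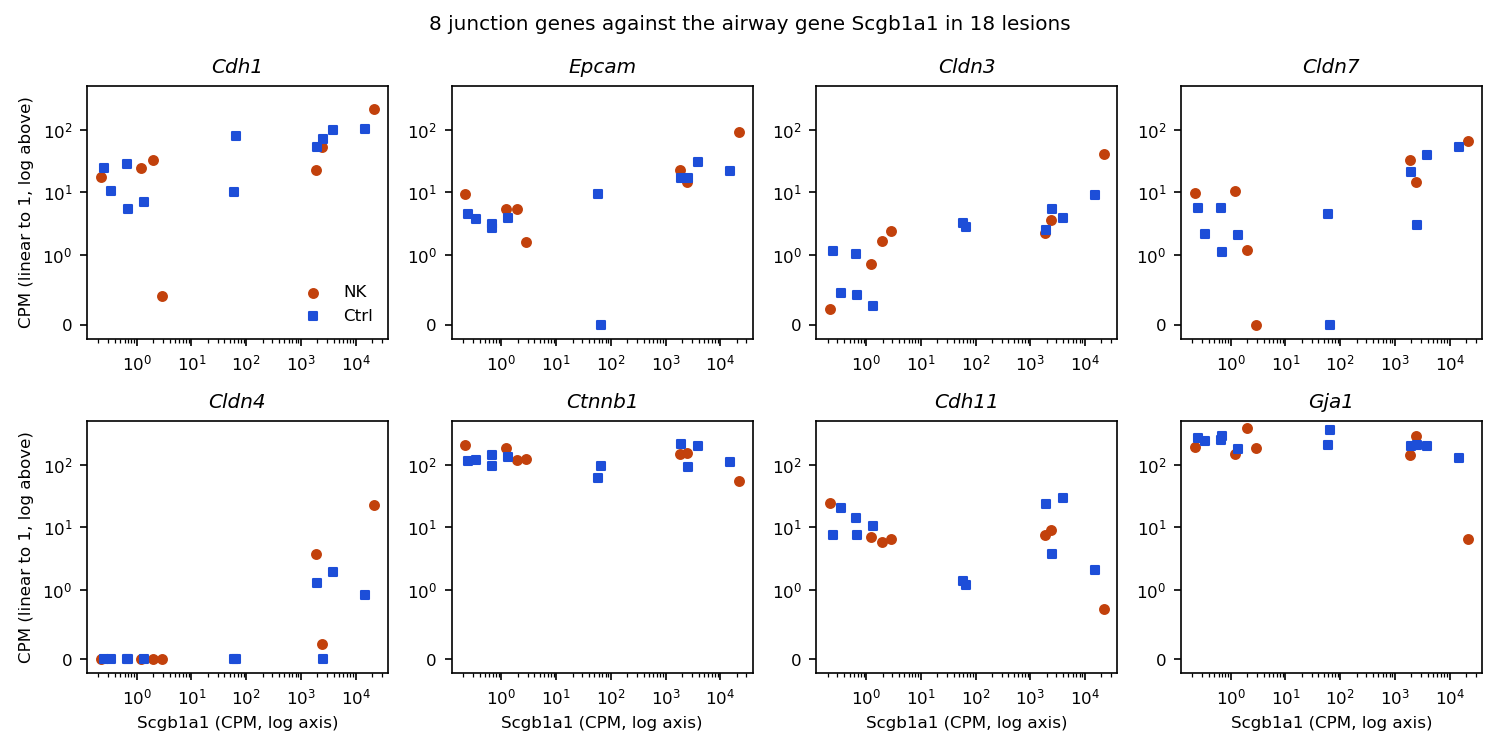
CPM of 8 junction genes (y axis, linear to 1 and logarithmic above) against CPM of Scgb1a1 (x axis, logarithmic) in 18 lesions, with NK lesions as circles and Ctrl lesions as squares. The 7 airway-rich lesions stand at the right of each panel. Epcam separates them from the others and Cldn4 has counts in 6 of them only, while Ctnnb1, Cdh11 and Gja1 overlap.

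Epcam was the 1 member for which every airway-rich lesion lay above every airway-poor lesion, which held for 1.13% of all genes. It had 14.8, 22.0 and 93.6 CPM (lowest, median, highest) in airway-rich lesions, and 0, 3.95 and 9.60 CPM in airway-poor lesions. Cdh1 had 23.0, 70.3 and 215 CPM in airway-rich lesions, and 0.406, 17.6 and 79.5 CPM in airway-poor lesions. The sets overlapped for Cdh1 through KO3-2, an airway-poor lesion with 79.5 CPM of Cdh1 in which Epcam and Cldn7 were at 0. Within the 7 airway-rich lesions Cdh1 ranked exactly as Scgb1a1 did (Spearman's rho 1, given as a description; the lesions come from 4 mice and share their depth with both genes), and within the 11 airway-poor lesions rho was 0. Over all tested members the median rho with Scgb1a1 was 0.15 within the airway-rich and -0.22 within the airway-poor lesions, against -0.11 and -0.11 over all genes.

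Claudins differed by airway content likewise. Cldn7 had 3.07, 32.8 and 65.5 CPM in airway-rich lesions, and 0, 2.19 and 10.5 CPM in airway-poor lesions, and its mean log2 difference was 4.81, the greatest of the list. By mouse the difference was 7.75 in NK1, 7.97 in KO3, 1.46 in NK2 and 2.05 in KO1. The only airway-poor lesions of NK1 and KO3 had 0 counts of Cldn7, so the size of those differences depends on the prior count. Cldn3 had 2.21, 3.88 and 41.8 CPM in airway-rich lesions, and 0.218, 1.03 and 3.20 CPM in airway-poor lesions; its rho with Scgb1a1 was 0.964 within the airway-rich and 0.718 within the airway-poor lesions, whereas rho was 0.643 and -0.62 for Cldn7 and -0.32 and -0.51 for Cldn1. Cldn4 had 104 counts in 6 of 7 airway-rich lesions and 0 counts in all 11 airway-poor lesions, so its pooled level of 1.88 CPM was at least 69.6-fold higher than a floor of 3 counts over the airway-poor lesions (0.0269 CPM). Of the 104 counts, 32 came from NK1-3 and 24 from NK1-1. Crb3 (mean log2 difference 3.83), Marveld3 (2.96), Lsr (1.98) and Cgn (1.90) completed the tight junction genes that were higher in 4 of 4 mice, with Cldn1 (2.06).

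The tight junction genes outside that set were the shared scaffolds and those with 1 mouse against the rest. Ocln (mean log2 difference 2.29), Tjp3 (1.85), Marveld2 (1.62), Cldn12 (1.09), F11r (0.52) and Tjp1 (0.41) were higher in airway-rich lesions in 3 of 4 mice, and Pard3 (-0.47) in 1 of 4. Tjp1 had 22.7, 44.3 and 75.9 CPM in airway-rich lesions, and 22.0, 36.1 and 84.4 CPM in airway-poor lesions.

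Outside the epithelial members, the adherens junction genes showed no common direction by airway content. Ctnnb1 had 54.7, 147 and 217 CPM in airway-rich lesions, and 60.4, 121 and 208 CPM in airway-poor lesions (mean log2 difference 0.13, higher in 2 of 4 mice). Cdh11 had 0.720, 7.41 and 28.9 CPM in airway-rich lesions, and 1.18, 7.49 and 24.6 CPM in airway-poor lesions (0.13, higher in 2 of 4 mice). Cdh2 had 0, 0.466 and 1.38 CPM in airway-rich lesions, and 0, 1.80 and 6.65 CPM in airway-poor lesions (-0.23, higher in 2 of 4 mice). Ctnna1 and Ctnnd1 were higher in 3 of 4 mice and Afdn in 1 of 4. Cdh3 was lower in 3 mice and at 0 counts in both lesions of KO3.

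Among desmosome genes, Dsg2 had 0.655, 2.05 and 9.36 CPM in airway-rich lesions, and 0, 0.174 and 2.03 CPM in airway-poor lesions (mean log2 difference 2.03). Dsp had 0.307, 3.96 and 9.15 CPM in airway-rich lesions, and 0, 0.279 and 3.08 CPM in airway-poor lesions, higher in 3 of 4 mice. Dsc2 had 83 counts in 4 airway-rich lesions and 0 in the airway-poor lesions. The heart muscle, Bpifa1 and Scgb3a1 transcripts of NK1-1 stand beside that value. Jup had 4.42, 17.6 and 21.6 CPM in airway-rich lesions, and 3.65, 18.3 and 26.8 CPM in airway-poor lesions, and Pkp2, Pkp3 and Pkp4 were higher in 1, 2 and 2 of 4 mice.

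The 2 connexins differed in sign. Gjb2 had 93 counts in airway-rich and 22 in airway-poor lesions, was higher in 4 of 4 mice (mean log2 difference 2.59), and had 35 of its counts in KO3-1. Gja1 had 6.48, 195 and 286 CPM in airway-rich lesions, and 150, 236 and 378 CPM in airway-poor lesions, with a mean log2 difference of -0.95 and a higher level in airway-rich lesions in 1 of 4 mice. NK1-3 alone set the low end of Gja1: it had 9 counts there, and the next airway-rich lesion, KO3-1, had 126 CPM.

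**Figure D4:**
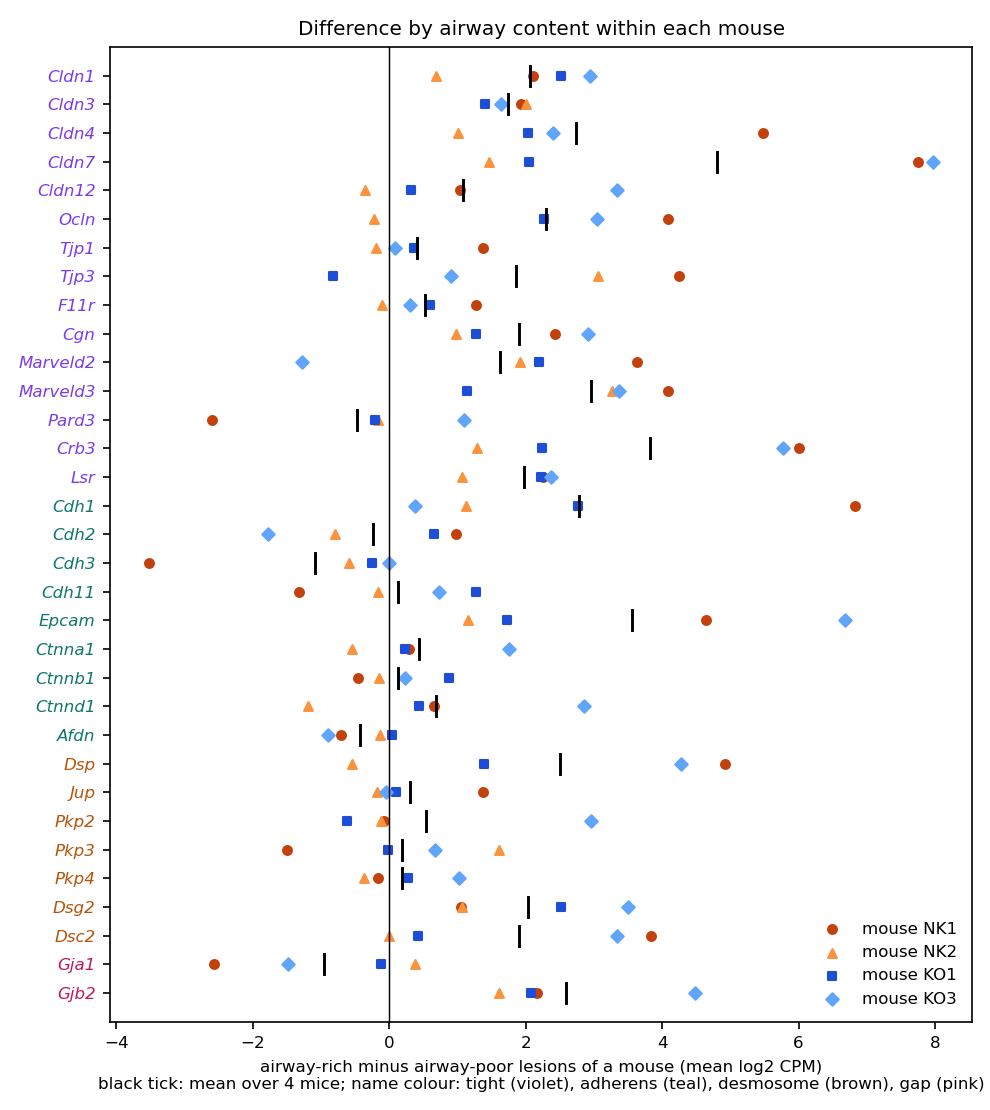
Airway-rich minus airway-poor lesions, mean log2 CPM within each of the 4 mice that had both (symbols), with the mean over mice as a black tick, for 33 members in class order. All 4 symbols lie right of 0 for 12 members, 8 of them in the tight junction class; Gja1 has 1 symbol right of 0.

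Cldn1 followed a mouse rather than airway content alone. It had 16.9, 25.2, 38.1 and 35.7 CPM in the 4 lesions of KO2, all airway-poor, and no more than 6.90 CPM (NK2-3) in any other lesion. Every KO2 lesion lay above every other lesion for 1 member, Cldn1, and for 0.195% of all genes. Markers of mesothelium, the lining of the lung surface, were high in KO2 as well: Upk3b had 3081 counts in KO2, 357 in NK1, 0 in NK2, 13 in KO1 and 16 in KO3, and the sum of 5 mesothelial markers was 83.9 to 189 CPM in KO2 lesions. In mouse NK1 that sum was 62.1 to 373 CPM, while Cldn1 was 0.406 to 4.10 CPM. One of the 5 markers, Krt19, is a keratin of other epithelia too, and it made 330 of the 373 CPM in NK1-3. Without Krt19 the sum of the other 4 markers was 69.6 to 154 CPM in KO2 lesions, 32.6 to 114 CPM in NK1 lesions and at most 11.3 CPM in the lesions of the other mice. In the lesions of NK2, KO1 and KO3, Msln did not exceed 7.55 CPM, Wt1 0.155 CPM and Lrrn4 0 CPM. The part of mesothelium in the Cldn1 values was not tested. In the opposite direction, Cldn12 was lower in both lesions of KO3 (1.98 and 0 CPM) than in any other lesion, which held for 1.02% of all genes.

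**Figure D5:**
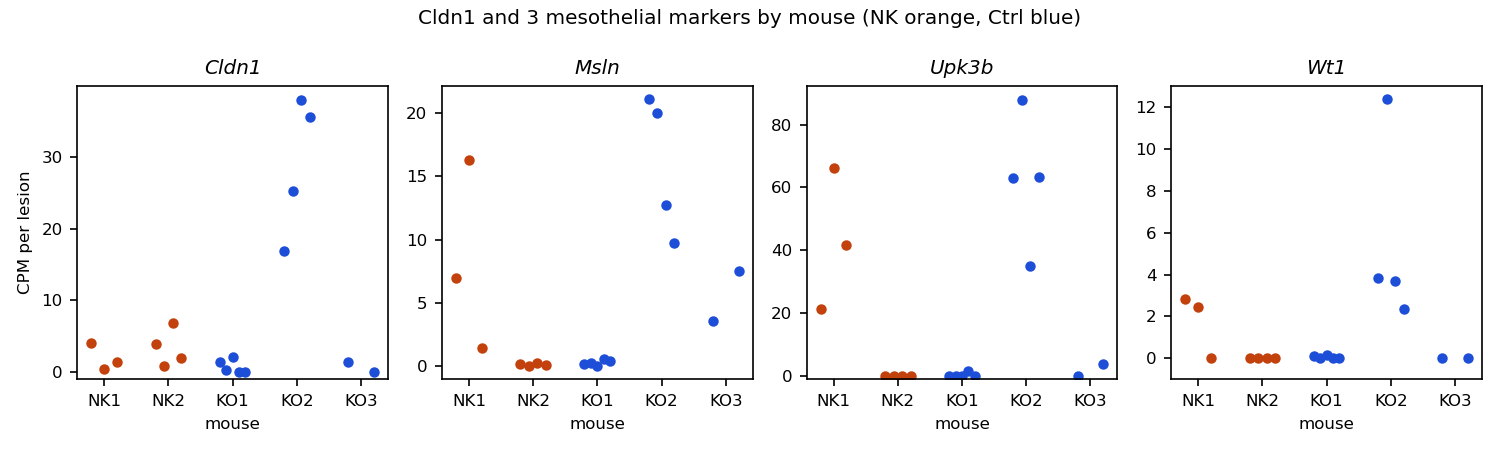
CPM per lesion of Cldn1 and of the mesothelial markers Msln, Upk3b and Wt1, by mouse, with NK mice left of Ctrl mice. The 4 KO2 lesions are the highest for Cldn1; Upk3b is high in KO2 and in NK1 lesions, and Msln is highest in KO2 lesions and NK1-2, while NK1-3 has 1.44 CPM.

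Lesion NK1-3 stood at the high or low end of the 18 lesions for many members. The share of all genes with an extreme in this lesion, the shallowest library, was not counted. The list therefore describes the lesion and shows nothing particular to junction genes. Its levels of Cgn (207 CPM), Cdh1 (215 CPM), Epcam (93.6 CPM), F11r (61.9 CPM), Ocln (58.3 CPM), Cldn3 (41.8 CPM), Lsr (32.4 CPM), Tjp3 (31.7 CPM) and Cldn4 (23.0 CPM) were each the highest of the 18 lesions, as were those of Cldn7, Marveld3, Pkp3, Pkp4 and Dsg2, and its levels of Gja1 (6.48 CPM), Ctnnb1 (54.7 CPM), Pard3 (4.32 CPM) and Cdh11 (0.720 CPM) the lowest. The same lesion had the highest Scgb1a1 (21946 CPM), the highest Krt8 (104 CPM) and the lowest Vim (292 CPM). Without NK1-3 and KO3-1, the 2 lesions farthest from the median of Scgb1a1, 12 members were higher in airway-rich lesions in each of the 3 mice left, and 11 of these were among the 12 named above. Over all genes the same held for 18.6%, a larger share than in 4 of 4 mice.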

How the data were processed

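RNA of 18 laser-captured lesions from 5 mice was measured. The submitters' processing notes name the mm10 build and the tools RSEM 1.2.28, STAR, DESeq2 and bcl2fastq 2.17, and 2 ng of RNA went into each library per the labels' protocols. The deposited count table holds expected counts that the authors left unscaled, and each was rounded to the nearest whole number. The authors also deposited normalized values, which look like a log2 scale; how they were normalized is not stated, and they served as an alternative. Strand handling is not stated either, so values of genes with an antisense neighbour are uncertain. Of 49585 identifiers, 49326 matched a symbol and 0 further sample columns were present.

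Counts were summed per mouse and tested in edgeR 4.0.16 (R 4.3.3) by quasi-likelihood F test (robust, TMM, filterByExpr with minimum count 10 and minimum total 15, Benjamini-Hochberg, threshold 0.05), with a standard error equal to the log2 fold change divided by the square root of F. The code was tested on simulated data, with large changes planted in genes of higher count. That check does not gauge how well small changes or members with few counts are detected. The common coefficient of variation was 64.9%. Log2 CPM used a prior count of 2. Exon lengths were unions over GENCODE M21 (GRCm38), and coordinates are 1-based. Members and gene lists were chosen with earlier results of these data known, so no list was tested as a set. Values are given in full for 10 chosen members and, per class, for the members with the smallest p and the highest counts. A planned correlation with Scgb1a1 over all 18 lesions was replaced by values within 2 sets, since the lesions fell into 2 clusters. DESeq2 1.42.0, other scalings, filters, mouse blocks and left-out mice or lesions were tried as alternatives.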

Additional observations from a re-analysis of the deposited data

Results flagged for a closer look

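In 8 of 33 members, 1 of the 7 NK lesions lay farther from the others than Dixon's criterion allows on the log2 CPM scale, as did 19.7% of all genes tested. Chance alone flags about 1 in 20 groups, and members measured in the same lesion are not independent. On the linear CPM scale the criterion was met by 15 members. In lesion NK1-3, F11r was high at 61.9 CPM (next NK lesion 21.7 CPM) and Cgn at 207 CPM (next 7.73 CPM), while Pard3 was low at 4.32 CPM (next 23.0 CPM), Ctnnb1 at 54.7 CPM (next 121 CPM) and Gja1 at 6.48 CPM (next 141 CPM). This is the shallowest library, with the most Scgb1a1 and the lowest AT3 marker sum, and the part of these in the values was not tested. That sum is largely Vim, and Krt7 and Krt8 of the same list were highest in this lesion. In NK1-2, Cdh1 was low at 0.406 CPM, on 1 count (next 17.6 CPM), and Afdn was high at 125 CPM (next 77.1 CPM). In NK1-1, Dsc2 was high at 9.94 CPM (next 0.720 CPM).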

How the results depend on the processing

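No member was called under any of the 32 alternatives to the NK comparison. Over all genes, 0 were called; 224 were called without a filter on low counts, 21 with DESeq2, 7 with the replicate block, and 0 to 4 when a mouse or lesion was left out (4 without mouse NK2). At an unadjusted p under 0.05 (edgeR) there were 2 members without that filter (5.90% of all genes), 1 with the replicate block (3.27%) and 1 without mouse NK2 (7.75%). Of 1046 alternative member values, 929 kept their sign and 117 did not; Ocln, Tjp1, Marveld2, Cdh3 and Gjb2 kept theirs in every fit that tested them. The median of the members was lowest without mouse NK1 (-0.45) and highest when KO3-1 was left out (0.27). The cause of the changes of sign was not tested.

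Log2 fold changes that changed sign were, with the replicate block (same-numbered mice share only a number; r = 0.0957 and 0.289), Cldn7 0.85, Cldn12 -0.11, F11r -0.14, Cdh1 0.18, Ctnna1 -0.21, Ctnnb1 -0.0103, Afdn 0.10 and Dsg2 0.22. Without NK1-3, KO3-1 and KO1-2 they were Cldn3 -0.12, Cldn7 0.87, Tjp3 -1.36, F11r -0.23, Pard3 0.089, Crb3 0.18, Pkp2 0.23 and Pkp4 0.045. With equal weight per lesion they were Cldn7 0.12, Lsr 0.00169, Ctnnd1 -0.076, Pkp3 0.31, Pkp4 0.025 and Dsg2 0.13. With the mouse as a random block they were Cldn7 0.46, Tjp3 -1.08, Cgn -0.10, Cdh2 0.068, Pkp2 0.093 and Dsg2 0.55, and with Scgb1a1 as a covariate besides, Cldn7 0.37, Tjp3 -0.65, Cdh2 0.061, Pkp2 0.062 and Dsg2 0.36. In the normalized table they were Cldn7 0.62, Tjp3 -0.18, Lsr 0.13, Cdh11 0.12, Pkp2 0.093, Pkp3 0.079, Pkp4 0.16 and Dsg2 0.39. Without the filter, F11r was -0.00235.

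Leaving out a mouse or a lesion gave ranges of -1.11 to 1.37 for Cldn3, -3.28 to 3.30 for Cldn4, -1.08 to 1.15 for Cldn7, -2.34 to 1.54 for Cldn1, -0.10 to 0.85 for Cldn12, -1.62 to 1.89 for Tjp3, -0.23 to 0.41 for F11r, -1.39 to 1.76 for Cgn, -1.62 to 0.10 for Marveld3, -0.50 to 0.16 for Pard3, -1.35 to 0.32 for Crb3 and -0.76 to 0.27 for Lsr. The ranges were -2.15 to 0.91 for Cdh2, -0.94 to 0.53 for Cdh11, -0.45 to 1.204 for Epcam, -0.21 to 0.52 for Ctnna1, -0.14 to 0.37 for Ctnnb1, -0.47 to 0.55 for Ctnnd1 and -0.60 to 0.12 for Afdn. They were -0.46 to 1.93 for Dsp, -1.66 to 0.026 for Jup, -0.69 to 0.25 for Pkp2, -0.80 to 0.88 for Pkp3, -0.20 to 0.25 for Pkp4, -2.61 to 0.50 for Dsg2, -7.05 to 3.82 for Dsc2 and -0.84 to 0.17 for Gja1. With 1 mouse left in a group, that mouse was assumed to vary like the others. The low end for Dsc2 rests on 0 counts in NK2, so its size is not a measured fold change.

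The number of members higher in airway-rich lesions in every mouse was 13 in the normalized table (12 shared with the main result), 12 with the mean of the airway markers in place of Scgb1a1, and 12 without NK1-1 (10.2% of all genes), an alternative chosen after seeing the data. Depth limits Cldn4, Cldn6, Cdh3, Dsc2 and Gjb2, which had 6 to 115 counts in all.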
